A study of Homo sapiens with 15 samples.

Results

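The genes described here encode the proteins of the cytosolic ribosome. They were taken by symbol, as RPL or RPS with a number and an optional A, L, X or Y1 ending, together with RPLP0, RPLP1, RPLP2 and RPSA. The rule matched 84 symbols, of which 5, RPL36A, RPL7A and RPS18 among them, were listed at 0 in every library and dropped, which left 79 of the 56624 symbols in the table. Of these 79 members, 74 reached 1 TPM in at least 3 libraries and were tested, 45 of them of the large (60S) subunit and 29 of the small (40S) subunit. RPL10L, RPL3L, RPS10L, RPS25 and RPS9 did not reach that level. RPS19 did, but averaged only 0.943 TPM. Since every cell uses RPS9, RPS18, RPS19, RPS25 and RPL7A, their values here were taken as how the table lists them and not as levels in the cells. In all, 72 members averaged at least 100 TPM.

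The cells were TF-1, a human erythroleukaemia cell line whose growth depends on GM-CSF or similar cytokines, and lines derived from it by base editing of IDH1 or IDH2. The groups were IDH1R132H, IDH2R140Q, IDH2R140W and IDH2R172K, named for the IDH mutation each line carries, and Parental, each with 3 libraries of poly(A) RNA. The 4 edited lines grew without GM-CSF and Parental cells with 2 ng/ml of it, so genotype and cytokine cannot be told apart in any comparison with Parental, while the edited lines share their medium among themselves. The labels do not say whether an edited line is a single clone, whether 1 or both alleles carry the edit, or how the cultures behind the libraries of a group relate to each other, so a p-value here speaks only of the spread from library to library, which may be technical. Levels are in TPM, which is scaled to transcript length and to a fixed library total and keeps no read depth.

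A ribosome carries 1 copy of nearly every protein subunit, and cells keep the subunits in step largely by translating their mRNAs together. These mRNAs begin with a run of pyrimidines, the 5′ terminal oligopyrimidine (TOP) tract, through which mTOR signalling and the LARP1 protein control their translation and stability. In erythroid progenitors the family is known through Diamond-Blackfan anaemia, in which loss of 1 copy of a single subunit gene impairs red cell formation. The subunits are usually read as a block, so the level of the whole family and the single subunits that depart from it were described separately.

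The start sites of subunits that departed from the family are shown first, with those of abundant members beside them, since the TOP tract is the feature that most of the family shares. Each line gives 15 bases before and 15 bases from the RefSeq start on GRCh38.p14, 5′ to 3′ on the gene's strand, and capitals mark the unbroken run of C and T that spans the start.
RPS6, chr9:19380222-19380251, minus strand: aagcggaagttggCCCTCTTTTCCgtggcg
RPS7, chr2:3575245-3575274, plus strand: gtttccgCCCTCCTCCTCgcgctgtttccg
RPS27A, chr2:55231888-55231917, plus strand: taaggagtgacacacaagacccagactctt
RPS21, chr20:62387088-62387117, plus strand: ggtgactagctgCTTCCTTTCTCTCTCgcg
RPS27, chr1:153990747-153990776, plus strand: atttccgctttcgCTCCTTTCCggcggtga
RPL27A, chr11:8682777-8682806, plus strand: ttggcgaaggCCTTCCTTTTTCgtctgggc
RPL35A, chr3:197950175-197950204, plus strand: cggcggggcctcgTCCTTCTCTTaccgcca
RPL28, chr19:55385917-55385946, plus strand: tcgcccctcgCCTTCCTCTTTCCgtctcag
RPL37A, chr2:216498829-216498858, plus strand: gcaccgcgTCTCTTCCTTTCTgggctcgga
The RefSeq table held a start for 59 of the 74 tested members. A C at the annotated start followed by at least 4 C or T on the sense strand was present in 38 of the 59 (64.4%), against 1429 of all 35116 promoters in the table (4.07%). With the start allowed to lie up to 5 bases to either side, the pattern was found in 46 of the 59 (78.0%), against 7408 of all promoters (21.1%). A match here is a description of the letters at an annotated start. In the windows shown, the departing subunits RPS6, RPS7, RPS21, RPS27, RPL27A and RPL35A have a run of C and T across the annotated start, as do the abundant RPL28 and RPL37A. In RPS7 the run ends 3 bases into the transcript, too early for the stated pattern, and RPS27A has no run across its annotated start.

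The table showed TF-1 cells by most of their markers. CD34, a progenitor marker, stood at 118 to 544 TPM, and CSF2RB, the shared beta chain of the GM-CSF receptor, at 50.1 to 186 TPM, while T-cell, B-cell and stromal markers stayed at or below 2.92 TPM. GATA1, CSF2RA and IL3RA were listed at 0 in all 15 libraries. Every library was closest to another library of its own group. Within 2 groups, however, 1 library stood apart in the genes described here. In Parental replicate 2, 68 of the 74 tested members lay above both other Parental libraries, with a median difference of 0.31 on the log2 scale, while 25.9% of all genes tested did so and the median gene lay 0.17 below. In IDH2R140W replicate 3, 70 of 74 members lay above both other libraries of the line, with a median difference of 0.27, against 23.9% of all genes. Results that rest on these libraries are therefore given with and without them.

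Ribosomal protein transcripts took a smaller share of the transcriptome in IDH1R132H, IDH2R140Q and IDH2R172K than in Parental cells, and a share within the Parental spread or above it in IDH2R140W. The 79 members held 15.28, 14.94 and 15.01% of all TPM in the IDH1R132H libraries and 13.81, 13.67 and 13.70% in IDH2R140Q. They held 18.11, 18.36 and 21.82% in IDH2R140W and 15.01, 14.87 and 14.68% in IDH2R172K, against 16.66, 20.91 and 17.69% in Parental. The libraries of IDH1R132H, IDH2R140Q and IDH2R172K all lay below the lowest Parental library, and those of IDH2R140W overlapped Parental. As means, the shares were 15.1 ± 0.180, 13.7 ± 0.0736, 19.4 ± 2.07 and 14.9 ± 0.164% in the 4 lines, against 18.4 ± 2.22% in Parental (SD, n = 3 each). Replicates of IDH1R132H, IDH2R140Q and IDH2R172K were therefore far closer to each other than those of IDH2R140W and Parental. The typical member had an SD of 2.996, 2.41, 11.8 and 2.25% of its mean in the 4 lines, against 13.5% in Parental. Transcripts of the mitochondrial genome, which share the fixed total, held 3.05 to 3.40% in IDH1R132H, 5.65 to 6.91% in IDH2R140Q, 3.98 to 4.36% in IDH2R140W and 4.87 to 4.96% in IDH2R172K, against 4.07 to 5.30% in Parental. Their part in the share of the ribosomal protein genes was not tested.

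**Figure D1:**
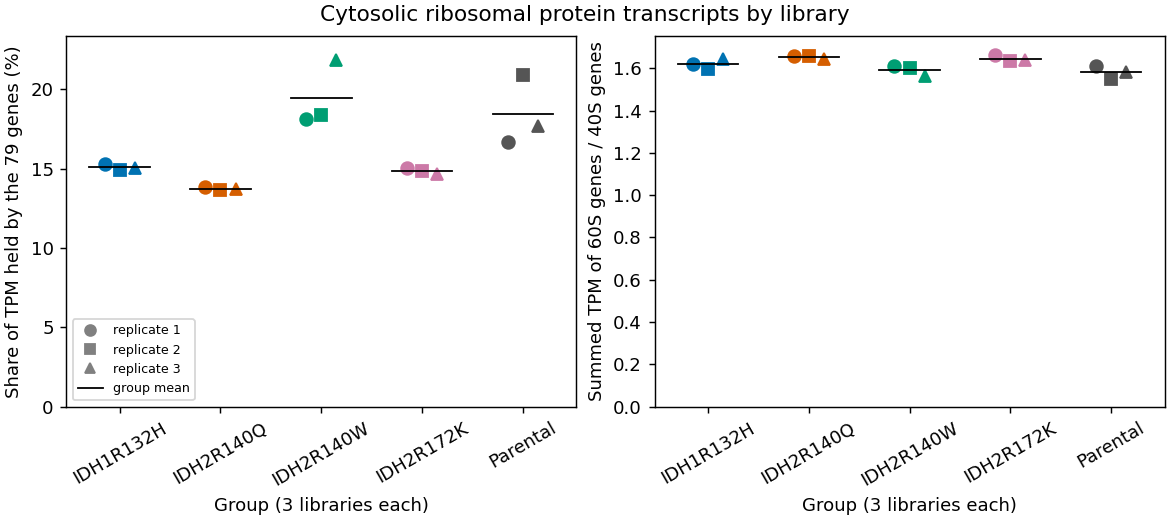
Share of all TPM held by the 79 ribosomal protein genes (left, %) and the ratio of summed 60S to summed 40S TPM (right) in each of the 15 libraries; lines are group means of 3 libraries. The share is 13.7 to 15.3% in IDH1R132H, IDH2R140Q and IDH2R172K and 16.7% or more in every IDH2R140W and Parental library, while the ratio stays between 1.55 and 1.66 throughout.

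The balance between the subunits varied little. Summed 60S TPM over summed 40S TPM was 1.60 to 1.65 for IDH1R132H, 1.64 to 1.66 for IDH2R140Q, 1.56 to 1.61 for IDH2R140W and 1.63 to 1.66 for IDH2R172K, against 1.55 to 1.61 in Parental. All libraries of IDH2R140Q and IDH2R172K lay above the highest Parental library, and the other 2 lines overlapped Parental. The most abundant members were RPL37A and RPL28, of the large subunit, and RPS3, near the mRNA entry of the small subunit, at 5740, 5687 and 5071 TPM on average over the 15 libraries. At the other end of the tested members, after RPS19, stood RPL39L at 38.1 TPM and RPL39 at 107 TPM.

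Gene by gene, most members fell against Parental in IDH1R132H, IDH2R140Q and IDH2R172K and few did in IDH2R140W. Differences are on the log2(TPM + 1) scale from a limma fit over all 14881 genes, and a gene fell or rose where its Benjamini-Hochberg adjusted p was under 0.05. In IDH1R132H 47 of the 74 tested members fell, where 13.7% of all genes did. No member rose there by limma, nor at an unadjusted p under 0.05, and 30.1% of all genes rose. In IDH2R140Q 63 of 74 fell, where 11.1% of all genes did, and no member rose, or 1 at an unadjusted p under 0.05, where 33.3% of all genes rose. In IDH2R172K 41 fell, where 13.5% of all genes did, and only RPS21 rose, where 25.5% of all genes did. In IDH2R140W 4 members fell, where 10.7% of all genes did, and 11 rose, where 13.3% did. The shares of members that fell stood above the share of all genes in the first 3 of these lines, and neither direction stood far from it in IDH2R140W. The fit uses 1 estimate of the spread for all groups, while members varied more in IDH2R140W and Parental than in the other lines. With only the libraries compared, 1 member fell and 1 rose in IDH2R140W, so single calls in that line are uncertain. The share of all genes called in that fit is not given.

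The falls were small for most members. Against Parental the median member differed by -0.27 (IDH1R132H), -0.43 (IDH2R140Q), 0.08 (IDH2R140W) and -0.26 (IDH2R172K). Over all genes tested the medians were 0.16, 0.23, 0.03 and 0.13 in the same order of lines. Set against the median gene, the median member thus lay at -0.44, -0.66, 0.05 and -0.39. A 2-fold fall, at a log2 difference of -1 or below, was reached by RPL39L and RPS7 in IDH1R132H, where 3.09% of all genes fell so far. RPL7 and RPS20 reached it in IDH2R140Q, where 2.47% of all genes did, and RPS6, RPS27A and the Y-linked RPS4Y1, whose level is not given, in IDH2R172K, where 2.96% did. Without Parental replicate 2, RPS7 in IDH1R132H and RPS27A in IDH2R172K did not reach a 2-fold fall, at -0.95 and -0.96. In IDH2R140W limma called no member changed 2-fold, where 4.78% of all genes were, and none reached a 2-fold difference at an unadjusted p under 0.05. Both subunits took part. Of the 45 tested 60S genes 29, 41, 3 and 27 fell in IDH1R132H, IDH2R140Q, IDH2R140W and IDH2R172K, and of the 29 tested 40S genes 18, 22, 1 and 14.

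Leaving out both libraries that stood apart kept the direction of the medians, at -0.20, -0.33, 0.09 and -0.19 in the 4 lines. Without them 51, 64 and 42 members fell and 3, 2 and 6 rose in IDH1R132H, IDH2R140Q and IDH2R172K. In IDH2R140W the count changed more, to 8 members that fell and 24 that rose. The median gene of that fit stood at 0.11, 0.17, 0.04 and 0.08 in the 4 lines. Shares of all genes called in that fit are not given, so these counts stand without a background. Leaving out only Parental replicate 2 put the median of that line at 0.18, and leaving out only IDH2R140W replicate 3 put it at -0.02, so neither its direction nor its size holds against Parental.

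**Figure D2:**
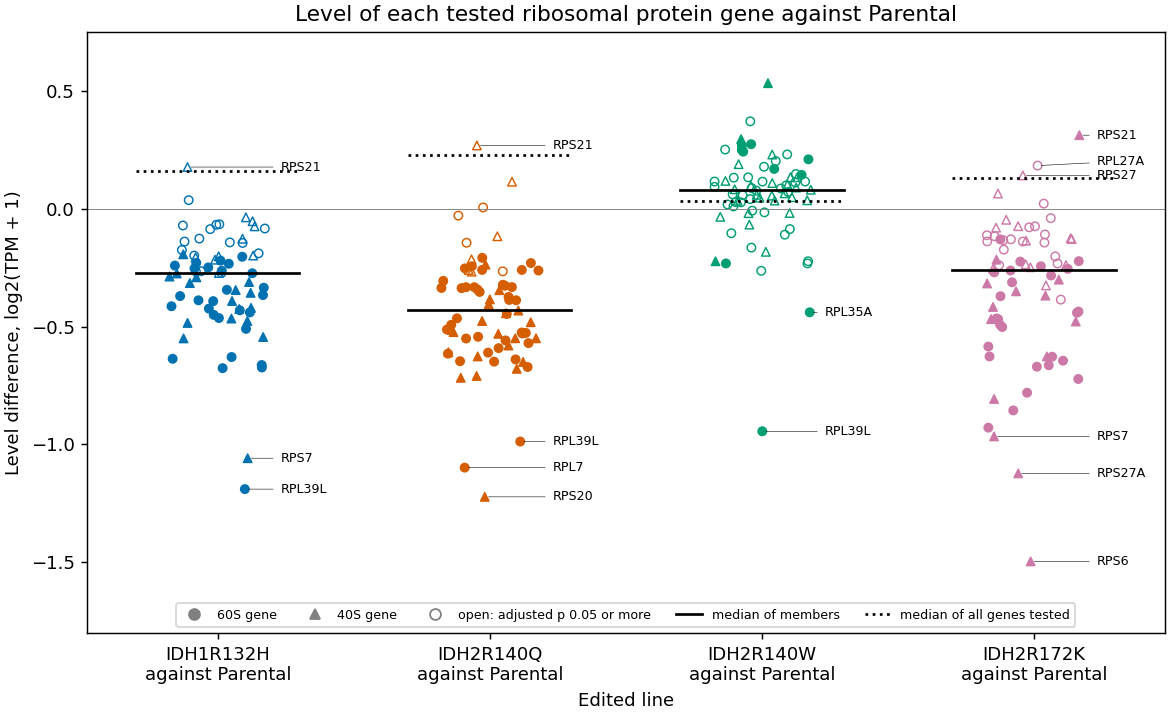
Level difference of 71 of the 74 tested members in each edited line against Parental, on the log2(TPM + 1) scale; circles are 60S genes, triangles 40S genes, open symbols did not pass the adjusted p, solid lines are the median of members and dotted lines the median of all genes tested. Members lie below the median gene in IDH1R132H, IDH2R140Q and IDH2R172K, and around it in IDH2R140W, with RPS6 at -1.50 in IDH2R172K as the lowest point.

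The comparisons with Parental share the Parental libraries, so the members that recur among them are given only as each line's own values. RPL39L, RPL10A and RPS2 fell in each of the 4 lines, and RPL10A and RPS2 were named after their values were seen. In IDH2R140W only RPL39L kept this call under every alternative. The calls of RPL10A and RPS2 there were lost with no filter on low values, with median-ratio scaling and with only the libraries compared. RPL10A, a 60S subunit, stood at 1242, 1210 and 1258 TPM in IDH1R132H, 1330, 1324 and 1331 TPM in IDH2R140Q, 1581, 1611 and 1860 TPM in IDH2R140W and 1238, 1255 and 1225 TPM in IDH2R172K, against 1828, 2168 and 1935 TPM in Parental. Every library of IDH1R132H, IDH2R140Q and IDH2R172K lay below every Parental library, while the highest IDH2R140W library exceeded the lowest Parental library. RPLP0, also named after its values were seen, and RPS4X fell in those 3 lines and rose in IDH2R140W. With only the libraries compared, 1 member rose in IDH2R140W, so these rises did not both keep their call.

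RPLP0, RPLP1 and RPLP2 form the P stalk, the part of the 60S subunit that recruits elongation factors. RPLP0 stood at 3500, 3366 and 3404 TPM in IDH1R132H, 2861, 2846 and 2768 TPM in IDH2R140Q, 4591, 4542 and 4584 TPM in IDH2R140W and 3945, 3776 and 3632 TPM in IDH2R172K, against 4091, 4128 and 4191 TPM in Parental. No edited line overlapped Parental. The log2 differences were -0.27, -0.55, 0.14 and -0.13, with limma adjusted p values of 6.09e-05, 9.31e-08, 0.0139 and 0.0163. RPLP1 differed by -0.34, -0.64, 0.09 and -0.14, and RPLP2 by -0.20, -0.39, 0.06 and -0.11. All 3 stalk genes fell in IDH2R140Q, where RPLP1 and RPLP2 had adjusted p values of 0.000562 and 0.0307, and in IDH1R132H RPLP2 did not pass.

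The question for single subunits was which of them did not move with the family. A departure is the level difference left after each library's values were set against the median of its 74 tested members, and it was called at a limma adjusted p under 0.05 and a size of at least 0.5 on the log2 scale. Against Parental, 62 of the 74 members departed in no line and 12 in at least 1. They included RPS6, RPS7, RPS20, RPS21, RPS27, RPS27A and RPS4Y1 of the 40S subunit and RPL7, RPL27A, RPL35A and RPL39L of the 60S subunit. The same scale moves ordinary genes upward wherever the family is low: 41.4, 60.9, 4.67 and 47.6% of all genes lay above it by this rule in IDH1R132H, IDH2R140Q, IDH2R140W and IDH2R172K, and 3.80, 2.17, 6.46 and 2.96% below it. Beside these, 2 members departed downward and 1 upward in IDH1R132H, 3 and 1 in IDH2R140Q, and 4 and 4 in IDH2R172K. In IDH2R140W 2 departed downward and none upward, also none at an unadjusted p under 0.05 and the same size.

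**Figure D3:**
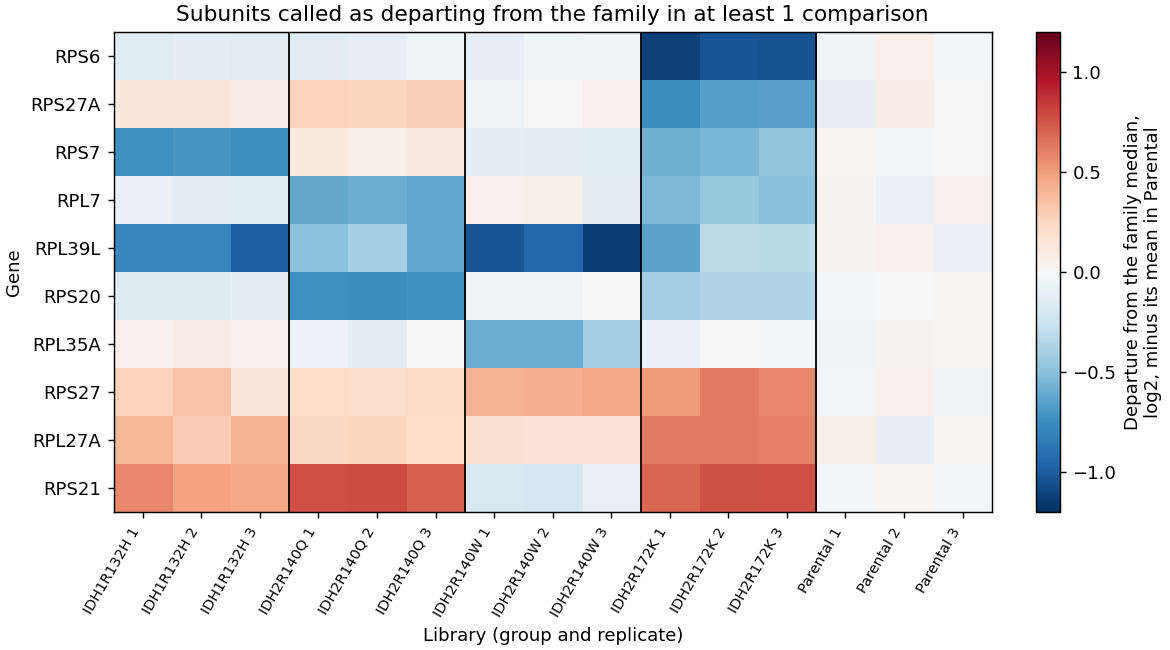
Departure of 10 subunit genes from the family median in each library, on the log2 scale and set to the Parental mean; blue is below and red above the family. RPS6 and RPS27A are bluest in the IDH2R172K libraries, RPS7 is bluest in IDH1R132H and IDH2R172K, RPL7 and RPS20 in IDH2R140Q, and RPS21 is red in every library of IDH1R132H, IDH2R140Q and IDH2R172K.

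RPS6, the 40S subunit that S6 kinase phosphorylates downstream of mTOR, was the member furthest from the family in any line. It lies on chromosome 9 (hg38, 19375715 to 19380254, minus strand). Its levels were 1532, 1560 and 1529 TPM in IDH2R172K, 3151, 3162 and 3130 TPM in IDH1R132H, 2878, 2852 and 2994 TPM in IDH2R140Q and 4060, 4203 and 5171 TPM in IDH2R140W, against 3763, 5327 and 4097 TPM in Parental. The IDH2R172K libraries lay at about the same low level and below every other library. Against Parental the level in IDH2R172K differed by -1.50 (SE 0.11, limma adjusted p = 1.06e-07) and the departure was -1.07 (SE 0.041, limma adjusted p = 4.34e-10). Against the mean of the other 3 edited lines, which also lacked GM-CSF, the departure was -0.97 (SE 0.034, limma adjusted p = 9.85e-11), where 4.75% of all genes were called downward. In IDH1R132H and IDH2R140Q RPS6 fell by 0.47 and 0.58 on the log2 scale, and its departures, -0.13 and -0.09, stayed under the size called.

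RPS27A, which encodes a 40S subunit made as a fusion with ubiquitin, also departed only in IDH2R172K among the comparisons with Parental. It lies on chromosome 2 (hg38, 55231903 to 55235853, plus strand). Its levels were 1047, 1084 and 1073 TPM in IDH2R172K, 2046, 2004 and 1961 TPM in IDH1R132H, 2036, 1948 and 2033 TPM in IDH2R140Q and 2247, 2345 and 2933 TPM in IDH2R140W, against 1933, 2910 and 2238 TPM in Parental. IDH2R172K stood below all other libraries, and the other edited lines overlapped Parental. The level in IDH2R172K differed from Parental by -1.12 (SE 0.12, limma adjusted p = 5.64e-06), and the departure was -0.69 against Parental and -0.82 against the other edited lines (limma adjusted p = 2.42e-07 and 6.40e-09). Without Parental replicate 2 the level difference from Parental was -0.96, short of 2-fold.

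RPS7, a 40S subunit that can bind the p53 regulator MDM2, departed downward in IDH1R132H and in IDH2R172K. It lies near the end of the short arm of chromosome 2 (hg38, 3575205 to 3580920, plus strand). Its levels were 971, 980 and 953 TPM in IDH1R132H, 1029, 1014 and 1055 TPM in IDH2R172K, 1582, 1494 and 1561 TPM in IDH2R140Q and 1869, 1838 and 2225 TPM in IDH2R140W, against 1805, 2349 and 1935 TPM in Parental. IDH1R132H and IDH2R172K stood well below the other lines, IDH2R140Q stood between, and IDH2R140W overlapped Parental. The level differed from Parental by -1.06 in IDH1R132H and -0.97 in IDH2R172K (SE 0.086, limma adjusted p = 3.35e-07 and 1.05e-06), and the departures were -0.73 and -0.54 (limma adjusted p = 2.52e-08 and 5.05e-07). Against the other edited lines the departure was -0.54 in IDH1R132H (limma adjusted p = 1.49e-07), where 5.52% of all genes were called downward. In IDH2R140Q it was 0.57 upward against the mean of the other 3 (limma adjusted p = 1.33e-07), where 29% of all genes were called upward. For IDH2R172K it was -0.28, under the size called. Without Parental replicate 2 the level difference in IDH1R132H was -0.95, short of 2-fold.

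**Figure D4:**
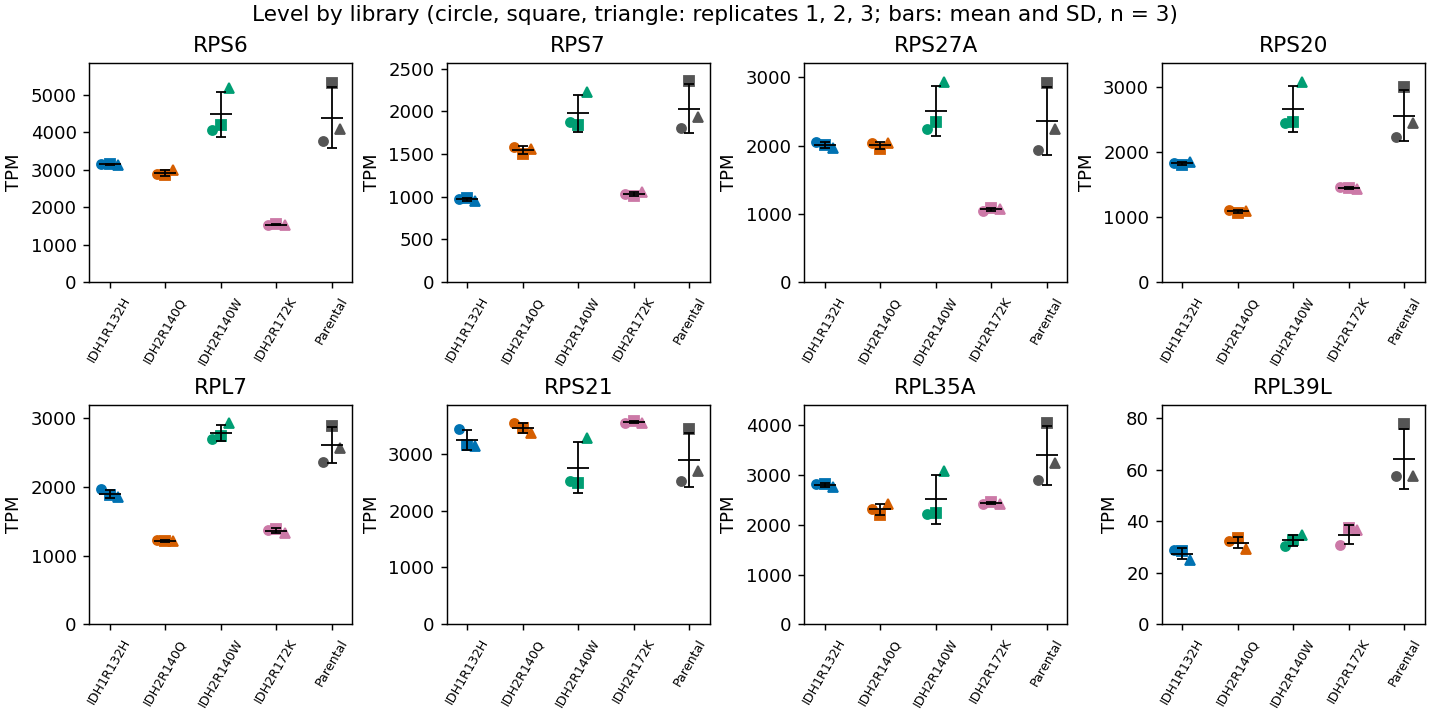
TPM of 8 subunit genes in each library; circle, square and triangle are replicates 1, 2 and 3, and bars are the mean and SD of 3 libraries. RPS6 and RPS27A are lowest in IDH2R172K, RPS7 in IDH1R132H and IDH2R172K, RPS20 and RPL7 in IDH2R140Q, and RPL39L is lower in all 4 edited lines than in Parental, where it stands at 57.4 to 77.6 TPM.

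RPS20 of the 40S head and RPL7 of the 60S subunit, both on chromosome 8, were lowest in IDH2R140Q. RPS20 stood at 1104, 1058 and 1103 TPM in IDH2R140Q, 1467, 1453 and 1435 TPM in IDH2R172K, 1830, 1799 and 1850 TPM in IDH1R132H and 2454, 2457 and 3078 TPM in IDH2R140W, against 2229, 2996 and 2454 TPM in Parental. RPL7 stood at 1226, 1207 and 1210 TPM in IDH2R140Q, 1375, 1391 and 1332 TPM in IDH2R172K, 1969, 1883 and 1861 TPM in IDH1R132H and 2702, 2737 and 2925 TPM in IDH2R140W, against 2368, 2886 and 2574 TPM in Parental. For both genes the order was IDH2R140Q, IDH2R172K, IDH1R132H and then Parental and IDH2R140W together, and the first 3 did not overlap each other or Parental. In IDH2R140Q the levels differed from Parental by -1.22 and -1.10 (limma adjusted p = 3.21e-07 and 9.23e-09), and the departures were -0.74 (SE 0.040, limma adjusted p = 7.12e-09) and -0.61 (SE 0.056, limma adjusted p = 1.07e-06). Against the other edited lines RPS20 departed by -0.55 in IDH2R140Q (limma adjusted p = 5.43e-08), where 2.05% of all genes were called downward.

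The remaining members on chromosome 8 are RPL8 and RPL30, both of the 60S subunit. All 4 members of that chromosome fell in IDH2R140Q, where 63 of all 74 members did, and in IDH2R172K, where 41 of 74 did. In IDH2R140Q the departures of RPL8 and RPL30 were 0.15 and 0.15, above the family and under the size called. RPL8 was lowest in IDH2R172K, at 3452, 3180 and 3219 TPM, against 5429, 5917 and 5574 TPM in Parental, a level difference of -0.78 (limma adjusted p = 4.53e-08). RPL30 stood at 1994, 2108 and 2044 TPM in IDH2R172K, against 2896, 3663 and 3093 TPM in Parental, a level difference of -0.64 (limma adjusted p = 5.19e-05). Neither gene's IDH2R172K libraries overlapped Parental. The departures of RPL7, RPS20, RPL8 and RPL30 in IDH2R172K were -0.50, -0.38, -0.35 and -0.21, of which RPL7 lay just short of the size called.

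RPS21, a 40S subunit, was the member that most often departed upward. It lies on chromosome 20 (hg38, 62387116 to 62388520, plus strand). Its levels were 3439, 3146 and 3128 TPM in IDH1R132H, 3530, 3448 and 3364 TPM in IDH2R140Q, 2518, 2475 and 3266 TPM in IDH2R140W and 3542, 3571 and 3546 TPM in IDH2R172K, against 2523, 3428 and 2703 TPM in Parental. Parental replicate 2, in which most of the family was high, reached the range of IDH1R132H and IDH2R140Q, and the libraries of IDH2R172K lay above all of Parental. The departures were 0.51, 0.75 and 0.74 in IDH1R132H, IDH2R140Q and IDH2R172K (limma adjusted p = 1.11e-06, 2.14e-08 and 2.95e-08), the first falling to 0.47 under the alternative that moved it most. As a level, the gene passed only in IDH2R172K, by 0.31 (limma adjusted p = 0.0345), and lost that call under 10 alternatives, with adjusted p values up to 0.50. RPS21 thus stood near its Parental level while the rest of the family was lower. In IDH2R140W its departure from the family against Parental was -0.16, under the size called. Against the other edited lines, in which RPS21 departed upward, the departure in IDH2R140W was -0.83 (limma adjusted p = 1.32e-09), where 63.9% of all genes were called downward.

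RPS27 and RPL27A departed upward in IDH2R172K and in no other comparison with Parental. RPS27, a zinc-binding 40S subunit, stood at 1390, 1439 and 1376 TPM in IDH2R172K, against 1114, 1548 and 1187 TPM in Parental. RPL27A, of the 60S subunit, stood at 3388, 3248 and 3183 TPM in IDH2R172K, against 2709, 3174 and 2778 TPM in Parental. The groups overlapped for RPS27 and did not for RPL27A, and by level neither passed, with limma adjusted p values of 0.32 and 0.0675. The departures were 0.57 and 0.61 (limma adjusted p = 1.69e-06 and 2.20e-07), where 47.6% of all genes were called upward, and that of RPS27 fell just under 0.5 when the family was centred on its mean. RPS27 also rose by level in IDH2R140W, by 0.53 (limma adjusted p = 0.00243), the largest rise of any member there. With only the libraries compared, just 1 member rose in that line, so this call is uncertain.

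RPL35A, a 60S subunit and a Diamond-Blackfan anaemia gene, departed downward in IDH2R140W. It lies on chromosome 3 (hg38, 197949980 to 197956610, plus strand). Its levels were 2220, 2236 and 3078 TPM in IDH2R140W, 2816, 2830 and 2751 TPM in IDH1R132H, 2313, 2197 and 2422 TPM in IDH2R140Q and 2419, 2468 and 2424 TPM in IDH2R172K, against 2901, 4053 and 3237 TPM in Parental. IDH2R140W overlapped Parental through its replicate 3. The departure in IDH2R140W was -0.53 against Parental (SE 0.053, limma adjusted p = 9.82e-06), where 6.46% of all genes were called downward. It was -0.53 against the other edited lines (SE 0.044, limma adjusted p = 4.30e-07), where 63.9% of all genes were called downward. The second call therefore does not set RPL35A apart from genes outside the family. Both values were close to the size called, and the call against the other edited lines was lost under 5 alternatives. Its level difference from Parental there was -0.44 (limma adjusted p = 0.0162), a call lost under 6 alternatives.

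Among paralogues, RPL39L fell in every edited line. RPL39L is a close copy of RPL39, a small 60S subunit that lines the peptide exit tunnel, and is best known from the testis. It lies on chromosome 3 (hg38, 187120948 to 187180908, minus strand). Its levels were 28.9, 28.4 and 24.8 TPM in IDH1R132H, 32.3, 33.4 and 29.2 TPM in IDH2R140Q, 30.5, 32.6 and 34.8 TPM in IDH2R140W and 30.6, 37.3 and 36.6 TPM in IDH2R172K, against 57.7, 77.6 and 57.4 TPM in Parental. All edited libraries lay well below all Parental libraries, and the edited lines lay close to each other. The level differences were -1.19, -0.99, -0.94 and -0.86 (SE 0.12, limma adjusted p = 2.99e-06, 1.96e-05, 5.81e-05 and 7.19e-05), and the departures -0.86, -0.50, -1.04 and -0.43, the last under the size called. The departure in IDH2R140Q was lost under 6 alternatives. RPL39 itself stood at 95.5, 109 and 84.9 TPM in IDH1R132H, 93.2, 82.1 and 89.4 TPM in IDH2R140Q, 121, 114 and 188 TPM in IDH2R140W and 87.3, 105 and 99.9 TPM in IDH2R172K, against 103, 151 and 76.8 TPM in Parental, and passed in no line, with limma adjusted p values from 0.241 to 0.661. Reads of such close copies can be shared out wrongly, so the split between RPL39 and RPL39L is uncertain.

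The other paralogue pairs showed less. RPS27L, a p53 target beside RPS27, averaged 113 ± 9.30, 120 ± 8.89, 143 ± 11.6 and 119 ± 9.76 TPM in the 4 lines, against 132 ± 30.9 TPM in Parental (SD, n = 3 each), and passed in none. RPS4X, the X-linked copy of eS4, stood at 1155, 1157 and 1167 TPM in IDH1R132H, 1122, 1085 and 1144 TPM in IDH2R140Q, 1737, 1730 and 1759 TPM in IDH2R140W and 1228, 1220 and 1216 TPM in IDH2R172K, against 1379, 1448 and 1429 TPM in Parental. No line overlapped Parental, with differences of -0.29, -0.35, 0.30 and -0.22 (limma adjusted p = 2.89e-05, 6.83e-06, 5.50e-05 and 0.000441). RPL10 and RPL3 carried nearly all of their pairs' TPM, since RPL10L and RPL3L stood at or below 0.36 and 0.67 TPM in every library. Both RPL3 and RPL10 fell in IDH1R132H and IDH2R140Q. RPL3 also fell in IDH2R172K, by 0.44 on the log2 scale (limma adjusted p = 3.39e-07), where RPL10 did not pass (limma adjusted p = 0.0571). Processed pseudogenes are a further source of shared reads. Symbols named as pseudogenes of the departing members held at most 0.671% of the member's TPM, for RPS20.

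Since the edited lines share their medium, IDH2R140W was also set against the mean of the other 3. The family was higher there: 66 of 74 members rose, where 9.98% of all genes did, and RPS21 was the only member that fell, where 25.4% of all genes did. The median member differed by 0.43, against -0.14 for the median gene. Leaving out each library in turn gave 59 to 70 called members, and leaving out both libraries that stood apart gave 68 that rose and 2 that fell. The shares of all genes in those fits are not given. This comparison was added after the results against Parental had been seen. By departure, 1 member was called in IDH1R132H against its 3 fellow lines, 3 in IDH2R140Q, 2 in IDH2R140W and 3 in IDH2R172K, where 16.1, 31.1, 64.9 and 17.5% of all genes were. Besides the subunits given above these were only RPS4Y1, in IDH2R140Q and IDH2R172K.

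Members that departed downward often lay among genes that were low too. For each member the protein-coding genes tested within 5 Mb to either side were taken as neighbours, leaving out the members themselves. In IDH2R172K the 19 neighbours of RPS6 had a median level difference from Parental of -0.46, with 10 lower and none higher by the limma call. The 16 neighbours of RPS27A had -0.72, with 9 lower and none higher, and the 10 neighbours of RPS7 had -0.60, with 8 lower and none higher. These values lie far from the median gene, at 0.13 in that line, and the members themselves lay lower still, at -1.50, -1.12 and -0.97. In IDH1R132H the neighbours of RPS7 had -0.61, with 7 of 10 lower, and in IDH2R140Q, where RPS7 did not depart from the family against Parental, 0.25. The neighbours of RPS6 were at 0.23, 0.36 and 0.13 in IDH1R132H, IDH2R140Q and IDH2R140W, and those of RPS27A at 0.33, 0.39 and -0.05.

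On chromosomes 8 and 20 the neighbours of the members that departed leaned the same way as the departure. In IDH2R140Q the 19 neighbours of RPS20 had a median of -0.30, with 9 lower and none higher, and the 11 neighbours of RPL7 had -0.20, with 3 lower and 1 higher. The neighbours of RPL8 and RPL30, which did not depart in IDH2R140Q, were at 0.155 and 0.27 there. In IDH2R172K the medians were -0.45 for RPS20, -0.36 for RPL7, -0.37 for the 52 neighbours of RPL8 and -0.52 for the 39 neighbours of RPL30. None of these members was called as departing in IDH2R172K. The 54 neighbours of RPS21 lay on the high side, at 0.52, 0.98 and 0.47 in IDH1R132H, IDH2R140Q and IDH2R172K, with 37, 51 and 38 of them higher, and at -0.05 in IDH2R140W. RPS27 and RPL27A, which departed upward in IDH2R172K, had neighbour medians of 0.17 and 0.16 there. These lay near the centre of all neighbour medians in that line, 0.17. The 36 neighbours of RPL35A were at -0.33 in IDH2R140W, with 13 lower and 1 higher, and at 0.30 to 0.35 in the other lines. RPL39L did not go with its neighbours in IDH1R132H, where these 45 genes were at 0.45, nor in IDH2R140Q, where they were at 0.15. In IDH2R140W, where its departure was largest, they were at -0.33, with 24 lower and none higher. In IDH2R172K they were at -0.03, with 10 lower and 3 higher.

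Over all 73 members with neighbours, the neighbour medians centred on 0.19, 0.24, 0.06 and 0.17 in IDH1R132H, IDH2R140Q, IDH2R140W and IDH2R172K, and fell below 0 for 3, 4, 20 and 12 members. Among the members that departed downward, with RPS4Y1 left out, the neighbour median was below 0 for 1 of 2 in IDH1R132H, 2 of 3 in IDH2R140Q, 2 of 2 in IDH2R140W and 3 of 3 in IDH2R172K. Neighbours share a region, a library and the same Parental cells, and these shares are a description. What the neighbouring genes have in common in these lines was not tested.

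**Figure D5:**
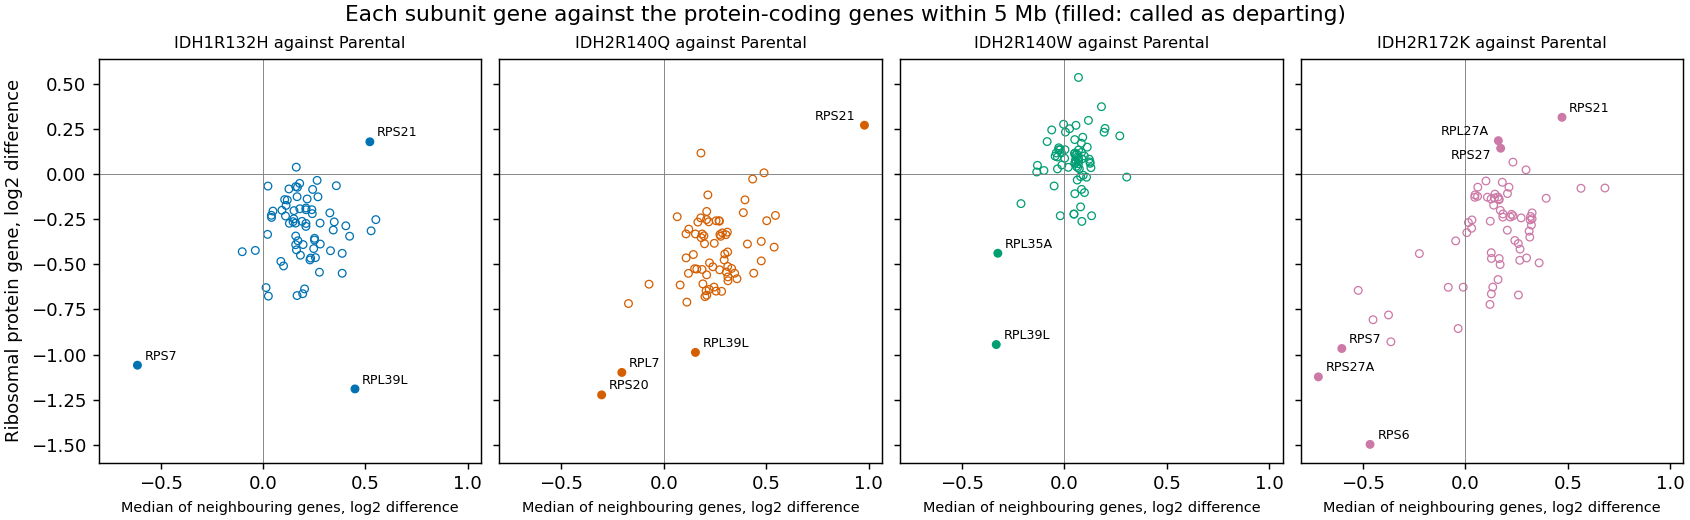
Level difference of each of 71 members (y axis) against the median level difference of the protein-coding genes tested within 5 Mb of it (x axis), per edited line against Parental, on the log2(TPM + 1) scale; filled points departed from the family. RPS6, RPS7 and RPS27A sit at the lower left in IDH2R172K with neighbour medians of -0.46 to -0.72, and RPS21 at the far right in IDH2R140Q with a neighbour median of 0.98.

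Levels were also set out by the TOP letters. Among the 38 members with a C and at least 4 pyrimidines at the annotated start, the median level difference was -0.26, -0.44, 0.08 and -0.24 in IDH1R132H, IDH2R140Q, IDH2R140W and IDH2R172K. Among the 21 without it the medians were -0.25, -0.33, 0.10 and -0.22. The medians of both sets are a description and their difference was not tested.

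The genes of Diamond-Blackfan anaemia, a list written after values were seen were also counted by themselves. Of 17 tested, 9, 13, 1 and 7 fell in IDH1R132H, IDH2R140Q, IDH2R140W and IDH2R172K, against 47, 63, 4 and 41 of all 74 members, and the list was not tested against the rest of the family. RPS19, whose listed values were not taken as levels, is counted among the 17 and fell in none of the lines. Among them RPS7, RPL35A and RPS27 departed, each as given above. RPL5 and RPL11, which bind MDM2 together with 5S rRNA when ribosome assembly stalls, did not move alike. RPL5 fell in IDH1R132H, IDH2R140Q and IDH2R172K, by 0.64, 0.65 and 0.66 on the log2 scale, while RPL11 fell only in IDH2R140Q, by 0.21. Both belong to that list and were named after their values were seen.

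Other genes of ribosome production and translation are given by count beside the background in the 4 lines. There 13.7, 11.1, 10.7 and 13.5% of all genes fell and 30.1, 33.3, 13.3 and 25.5% rose. The median gene stood at 0.16, 0.23, 0.03 and 0.13. None of these lists was tested as a set. Of 74 tested proteins of the mitochondrial ribosome 13, 20, 13 and 21 fell and 20, 13, 3 and 8 rose in IDH1R132H, IDH2R140Q, IDH2R140W and IDH2R172K, with medians of -0.03, -0.08, -0.07 and -0.05, below the median gene in each line. Of 15 genes of RNA polymerase I, which transcribes rRNA, 1, 1, 2 and 2 fell and 4, 4, 2 and 2 rose. Of 23 rRNA processing genes 4, 8, 5 and 4 fell and 8, 6, 2 and 5 rose. NPM1, the nucleolar chaperone nucleophosmin, fell in IDH1R132H, IDH2R140Q and IDH2R172K, to 1796 ± 67.0, 1649 ± 42.6 and 1856 ± 21.95 TPM, against 2220 ± 74.6 TPM in Parental (SD, n = 3 each). Of 19 ribosome assembly and export genes 1, 3, 1 and 2 fell and 8, 5, 1 and 6 rose. Of 13 genes of mTOR signalling and TOP regulation 1, 1, 0 and 0 fell and 4, 2, 0 and 3 rose in the limma fit. At an unadjusted p under 0.05 the zeros of that list became 0 that fell and 1 that rose in IDH2R140W and 1 that fell in IDH2R172K.

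Of 18 elongation factors and other TOP mRNAs 4, 9, 5 and 7 fell and 2, 1, 5 and 1 rose. EIF3E, a subunit of initiation factor 3, fell in IDH2R172K to 290 ± 19.1 TPM, against 565 ± 63.7 TPM in Parental, and TPT1, an abundant TOP mRNA, to 2192 ± 39.7 TPM, against 3811 ± 412 TPM in Parental (SD, n = 3 each). EIF3E also fell in IDH1R132H, to 391 ± 6.60 TPM, and in IDH2R140Q, to 449 ± 32.1 TPM (SD, n = 3 each). EEF1B2, an exchange factor of elongation, rose in IDH2R140W to 922 ± 74.8 TPM, against 631 ± 64.7 TPM in Parental. Of 11 tested snoRNA host genes, whose introns carry the guides of rRNA modification, 0, 8, 1 and 6 fell and 2, 1, 0 and 1 rose in the limma fit, with medians of -0.07, -0.49, -0.16 and -0.53, and both zeros stayed 0 at an unadjusted p under 0.05. SNHG6, a host gene, fell in IDH2R140Q and IDH2R172K by 1.19 and 1.16 on the log2 scale (limma adjusted p = 0.000109 and 0.000131). ZFAS1, a host gene, rose in IDH1R132H, by 0.32, and fell in IDH2R140W and IDH2R172K, by 0.59 and 0.90. Of 12 tested p53 targets 2, 2, 1 and 3 fell and 5, 3, 1 and 1 rose. Of 6 tested ribosomal proteins whose symbols fall outside the rule 1, 2, 0 and 0 fell and 1, 0, 1 and 1 rose in the limma fit, and the zeros stayed 0 at an unadjusted p under 0.05. Among these FAU, the ubiquitin-like fusion with RPS30, rose in IDH2R140W and IDH2R172K, to 1758 ± 205 and 1616 ± 56.3 TPM, against 1395 ± 122 TPM in Parental (SD, n = 3 each).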

How the data were processed

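The authors deposited 1 table of TPM values for 15 libraries, with gene symbols as row names. Per the submitters' processing notes, STAR 2.7.3, HTSeq, RSEM, DESeq2 and the build hg38 were used, with no role stated for each; per the labels' protocols, RNA was selected for poly(A) and libraries were made with a directional kit. The annotation is not given in the sources used here. TPM keeps no read number, so depth and its precision are unknown, and a change in abundant genes moves all others.

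Rows of 1 symbol were summed (63568 rows, without 6 ambiguous date-like ones). The 14881 genes that reached 1 TPM in 3 or more libraries were fitted as log2(TPM + 1) with limma 3.58.1 in R 4.3.3, all 15 libraries, 1 mean per group and an intensity trend, and p-values were adjusted by Benjamini-Hochberg over all genes. Departures used the same fit after subtracting the median of the 74 tested members from each library. An exact test of 3 against 3 libraries cannot go below p = 0.10. Gene positions are those of GENCODE release 29 (hg38) and start sites those of RefSeq (GRCh38.p14). The fits were tried on simulated data with independent noise for each gene. In these the family did not move against other genes and no single library stood apart, so those settings were not covered. Named were members changed 2-fold, the 4 largest departures each way, members departing alike in 3 lines, the 3 most and least abundant, and paralogues. The members on chromosome 8, where 2 departed alike, and leading genes of some lists were also named. Chromosome 2 in IDH2R172K and chromosome 3 in IDH2R140W likewise held 2 members departing downward. The other members on those chromosomes are not all given. The members and lists were chosen with earlier results of these data known. Levels of RPS4Y1 are not reported here, and a few members are counted but not reported here by name or drawn.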

Additional observations from a re-analysis of the deposited data

How the results depend on the processing

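Of 38 results for single members, each under the alternatives that apply to it, 1010 of 1052 values kept their direction and call, 42 lost the call and 0 reversed. Leaving out each library in turn gave 35 to 55, 58 to 66, 11 to 25 and 35 to 50 members called by level against Parental in IDH1R132H, IDH2R140Q, IDH2R140W and IDH2R172K, and 59 to 70 in IDH2R140W against the other edited lines. The medians ran from -0.36 to -0.20, -0.52 to -0.33, -0.02 to 0.18 and -0.34 to -0.19, and the counts of departures from 2 to 3, 3 to 5, 2 to 3 and 8 to 10 against Parental and 1 to 1, 3 to 3, 2 to 2 and 3 to 3 against the other edited lines. The 15 members called by level in IDH2R140W against Parental became 7 with no filter on low values, 3 with median-ratio scaling, 2 with only the libraries compared, 7 with no intensity trend, 33 with array weights and 32 without both libraries that stood apart, an alternative chosen after seeing the data, as was adding pseudogene TPM to its member, which gave 15. Departures against Parental became 8 in IDH2R140Q with no filter, and in IDH2R140W 4 with array weights and 1 when centred by the mean over members. Against the other edited lines they became 5 in IDH2R140Q and 4 in IDH2R140W with no filter, and 1 in IDH2R140W after quantile normalisation. The median level differences moved to -0.47, -0.70 and -0.42 in IDH1R132H, IDH2R140Q and IDH2R172K with median-ratio scaling, and to -0.26 in IDH2R140Q after quantile normalisation. The cause was not tested. Shares of all genes called under the alternatives are not given, so these counts stand without a background. Both array-weight fits stopped before convergence. Libraries that share a replicate number did not deviate together (30 pairs, r from -0.29 to 0.22, 1 pair over 0.1), so the numbers were not read as pairs. With the replicate number as a block 47, 64, 15 and 40 members were called by level against Parental, against 47, 63, 15 and 42 without it. TPM keeps no depth, so no limit from depth can be given.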
